A study of Mus musculus with 4 samples.

Results

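The 10 genes described here belong to the unfolded protein response: Hspa5, Hyou1, Pdia4, Sdf2l1, Dnajb9, Creld2, Herpud1, Xbp1, Atf4 and Ddit3. They were chosen by symbol, as a list of known stress response genes of the endoplasmic reticulum (ER), and all 10 were found among the 32285 genes of each deposited table. They fill 11 rows, because Ddit3 has a second row (ENSMUSG00000116429) with 0 unique molecular identifiers (UMIs, one per captured RNA molecule) in every library. RNA was counted in single nuclei of frozen liver from male wild type C57BL6/J mice, a common inbred strain, aged 2 months (2 libraries, replicates 1 and 2 of the labels, here young 1 and young 2) or 30 months (2 libraries, aged 1 and aged 2). No transgene or treatment is named in the labels, and the groups differed in age alone as far as the labels say. The labels call the libraries replicates without stating whether separate animals gave them, so p-values cover the spread between libraries only, and that spread may be technical.

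The ER folds and modifies secreted and membrane proteins, a heavy task in hepatocytes, which make most plasma proteins. When unfolded proteins accumulate in its lumen, the membrane sensors IRE1, PERK and ATF6 signal to the nucleus. IRE1 splices Xbp1 mRNA into the form that encodes an active transcription factor, ATF6 is cut to release another, and PERK slows translation while favouring that of Atf4. Chaperones, enzymes of disulphide bond formation and components of ER-associated degradation (ERAD), which exports misfolded proteins for destruction, are the classical targets. Counts per gene do not separate spliced from unspliced Xbp1, and Atf4 is controlled largely at translation, so the RNA levels below are not activities of these factors.

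The targets are known to carry short promoter motifs bound by ATF6 and XBP1, so the promoter windows of the members that hold a full motif are shown first. Windows ran from 250 bases before to 50 bases after the RefSeq start site on GRCm38.p6, the assembly also called mm10, and 9 of the 10 members had one (Hyou1 did not match). On both strands, the ER stress response element ERSE (CCAAT, then any 9 bases, then CCACG) was in 39 of 32851 mouse promoter windows (0.119%), and among them in those of Hspa5 and Creld2. ERSE-II (ATTGG, any base, then CCACG) was in 12 windows (0.0365%), including that of Herpud1. The UPRE core TGACGTGG was in 222 windows (0.676%) and in no member's window, and the amino acid response element TTGCATCA, a site type of Atf4 and its partners, was in 294 (0.895%), with Herpud1 as the one member. CCACG on its own, a part of both ERSE and ERSE-II and so overlapping them, was in 32.8% of windows and in 7 of the 9 members' windows. The sequences are on the plus strand, 5′ to 3′, with the motifs in capitals.
Hspa5 (chr2:34771840-34772139, ERSE from -65 to -47 of the start site): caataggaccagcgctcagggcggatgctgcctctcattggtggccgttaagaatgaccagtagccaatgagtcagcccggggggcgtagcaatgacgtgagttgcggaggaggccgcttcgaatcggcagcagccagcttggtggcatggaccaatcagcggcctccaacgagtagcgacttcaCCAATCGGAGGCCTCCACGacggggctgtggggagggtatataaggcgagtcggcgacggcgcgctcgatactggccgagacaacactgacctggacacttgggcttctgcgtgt
Herpud1 (chr8:94386179-94386478, TTGCATCA from -112 to -105 and ERSE-II from -52 to -42): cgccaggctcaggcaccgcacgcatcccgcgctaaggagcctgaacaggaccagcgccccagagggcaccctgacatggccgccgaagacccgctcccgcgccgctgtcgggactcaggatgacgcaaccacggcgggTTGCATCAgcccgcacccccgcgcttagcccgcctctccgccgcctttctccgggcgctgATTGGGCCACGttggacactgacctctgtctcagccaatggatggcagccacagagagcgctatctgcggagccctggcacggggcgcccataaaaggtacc
Creld2 (chr15:88819396-88819695, ERSE on the minus strand from -126 to -108): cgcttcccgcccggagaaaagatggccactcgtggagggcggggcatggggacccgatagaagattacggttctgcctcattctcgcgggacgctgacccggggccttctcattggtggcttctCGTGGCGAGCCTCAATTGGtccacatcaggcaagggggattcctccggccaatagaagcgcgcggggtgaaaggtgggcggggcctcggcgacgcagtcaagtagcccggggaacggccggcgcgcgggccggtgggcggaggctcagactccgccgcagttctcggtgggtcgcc
A match describes the letters in a window, and binding was not measured.

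The 4 libraries held 2666 to 14718 barcodes and 11799751 to 54777101 UMIs. After removal of doublets and of barcodes with over 5% mitochondrial UMIs, 1935, 12219, 7216 and 11892 nuclei remained in young 1, young 2, aged 1 and aged 2, of which 1366, 8897, 5545 and 8295 were hepatocyte-like, named from markers such as Alb and Apob. All 10 hepatocyte markers had UMIs in the hepatocyte-like nuclei of every library. Median depth in these nuclei differed between libraries, at 3576.5, 923, 2117 and 2989 UMIs. Pairs of libraries shared 8 to 67 barcodes, at most 0.537% of the smaller library. Libraries of 1 group were distinct, with a chi-square of 61.1 (young) and 114 (aged) per degree of freedom when their gene counts were compared.

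Every member was detected in hepatocyte-like nuclei of every library. The sums reached 2031 to 9012 UMIs per library for Herpud1 and 1217 to 4867 for Hspa5, and were smallest for Sdf2l1 (11 to 38 UMIs), whose levels are therefore poorly measured. To compare detection at equal depth, each nucleus was thinned to 1000 UMIs, and 67, 5066, 1555 and 1129 shallower nuclei of young 1, young 2, aged 1 and aged 2 were left out. An Hspa5 UMI was then present in 17.2% of nuclei in young 1 (95% exact binomial interval 15.2 to 19.4), 22.0% in young 2 (20.7 to 23.4), 11.9% in aged 1 (10.9 to 13.0) and 13.9% in aged 2 (13.1 to 14.7). Both aged libraries were below both young ones. How many of all genes had that order in detection was not counted. Before thinning the shares were 49.2%, 25.4%, 26.9% and 36.6%, so the order of the libraries depended on their depth. A Creld2 UMI was rare, in 1.46%, 3.0%, 0.451% and 0.781% of thinned nuclei (5.71%, 3.69%, 0.938% and 2.89% before thinning). No member at all was seen in 41.0%, 27.1%, 49.5% and 46.1% of the thinned nuclei, and at least 2 members in 20.5%, 33.0%, 13.8% and 16.6%. Intervals cover counting error only, and since all liver cell types use these genes, no cell type gave a background of free RNA to set beside these shares.

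The first comparison asked whether the response genes differed between young and aged hepatocyte-like nuclei. None of the 10 members passed (edgeR's quasi-likelihood test on UMIs summed per library, Benjamini-Hochberg adjusted p under 0.05), at a background of 0.0327% of genes called (5 of 15282). Of the members, 9 had a log2 fold change (aged minus young) below 0, with a median of -0.60, and 5 were lower in both aged libraries than in either young one: Hspa5, Hyou1, Creld2, Herpud1 and Atf4. Over all genes tested, 25.4% were lower and 25.7% higher in both aged libraries. At an unadjusted p under 0.05, 2804 genes (18.3%) and 2 members, Atf4 and Creld2, passed. DESeq2 called 805 genes and 1 member, Creld2. Levels are given below as counts per 1000000 UMIs after TMM scaling (CPM), which corrects for differences in library composition, in the order young 1, young 2, aged 1, aged 2. A lower level in such sums can mean fewer expressing nuclei or less RNA per nucleus, and these cannot be told apart.

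**Figure D1:**
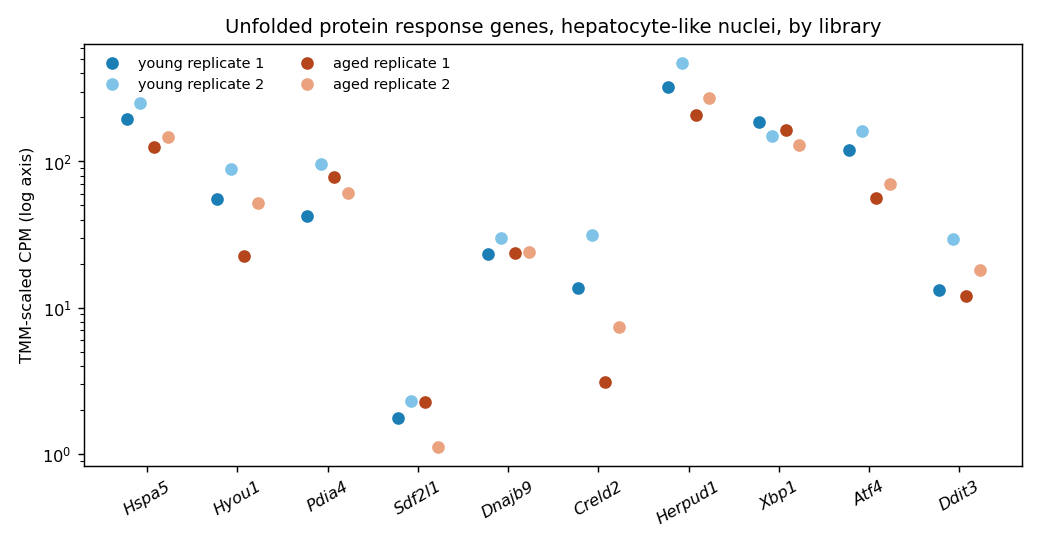
TMM-scaled CPM (log axis) of the 10 genes in hepatocyte-like nuclei, one point per library, without error bars since each point is 1 library. Both aged libraries lie below both young ones for Hspa5, Hyou1, Creld2, Herpud1 and Atf4, while Pdia4, Sdf2l1, Dnajb9, Xbp1 and Ddit3 overlap.

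Among the chaperones, Hspa5 (chr2:34771970-34777547), which encodes BiP, the main Hsp70 chaperone of the ER and the classical readout of the response, was at 195, 249, 127 and 147 CPM. The young mean was 222 ± 38.3 and the aged mean 137 ± 14.4 CPM (SD, n = 2 each), a log2 difference of -0.70 (SE 0.32, edgeR's quasi-likelihood test, adjusted p = 0.302). Hyou1 (chr9:44379490-44392369), a nucleotide exchange factor of BiP, was at 55.1, 88.5, 22.6 and 52.1 CPM. Young 1 and aged 2 were close, and the log2 difference was -0.94 (SE 0.46, edgeR adjusted p = 0.323). Dnajb9 (chr12:44205559-44210326, minus strand), an Hsp40 co-chaperone of BiP, varied little, at 23.2, 29.8, 23.6 and 24.2 CPM, with a log2 difference of -0.15 (SE 0.31). Sdf2l1 (chr16:17130138-17132383, minus strand), an ER luminal partner of Hsp40 proteins, was at 1.76, 2.29, 2.28 and 1.12 CPM, and its log2 difference of -0.28 had an SE of 0.64.

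Of the disulphide enzymes, Pdia4 (chr6:47796141-47813430, minus strand), a protein disulphide isomerase, was at 42.1, 95.8, 78.5 and 61.3 CPM. The young libraries lay outside the aged ones on both sides, and the log2 difference was 0.02 (SE 0.43). Creld2 (chr15:88819646-88826683), an ER stress-inducible protein with disulphide isomerase activity, was at 13.6, 31.2, 3.13 and 7.43 CPM. It had the greatest difference of the 10 members, with means of 22.4 ± 12.4 and 5.28 ± 3.04 CPM (SD, n = 2 each) and a log2 difference of -2.08 (SE 0.57). Its adjusted p was 0.174 by edgeR's quasi-likelihood test and 0.0215 by DESeq2. Creld2 also passed without a filter on low counts (edgeR adjusted p = 0.0005). That setting called 5.84% of 25064 genes and DESeq2 5.27% of 15282, against 0.0327% in the main fit. Creld2 passed without young 1 and without aged 2 as well. Those fits left 1 library in a group and called far more genes than the main fit. In all, Creld2 was called in 4 of 11 alternatives, with a log2 difference from -2.80 to -1.32.

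Herpud1 (chr8:94386438-94395377), an ER membrane protein of the ERAD ubiquitin ligase complex, was at 325, 470, 207 and 272 CPM. The log2 difference was -0.73 (SE 0.38, edgeR adjusted p = 0.343). Of the transcription factors, Atf4 (chr15:80255184-80257541) was at 119, 162, 56.5 and 70.4 CPM. Its means were 141 ± 30.5 in young and 63.4 ± 9.84 CPM in aged libraries (SD, n = 2 each), and the log2 difference was -1.15 (SE 0.33, edgeR adjusted p = 0.182, from 0.0530 to 0.728 over the alternatives). Xbp1 (chr11:5520659-5525893) was at 188, 150, 164 and 130 CPM, with overlapping groups and a log2 difference of -0.20 (SE 0.32). Ddit3 (chr10:127290774-127296288), which encodes CHOP, a factor linked to cell death under prolonged stress, was at 13.3, 29.3, 12 and 18.1 CPM, with a log2 difference of -0.50 (SE 0.45). Its counts carry a limit: 105 of its 1713 exon bases (6.1%) overlap its second row on the same strand, so reads there can be assigned differently. With Mars, a gene on the opposite strand, it shares 68 exon bases (4.0%).

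Other genes of the pathway, in lists written for this comparison, gave no call either. Of ER folding genes 13 of 16 had a log2 difference below 0 (median -0.24), led by Calr (-0.98, edgeR adjusted p = 0.248), a lectin chaperone, and Hsp90b1 (-0.76, adjusted p = 0.302), the ER Hsp90. This majority depended on single libraries: without young 2 the folding list had 6 of 16 below 0 (median 0.23, 1 gene called higher), and without aged 1 it had 9 of 16 (median -0.05). Of ERAD genes 10 of 14 tested were below 0 (median -0.41), led by the ubiquitin ligase Syvn1 (-1.22, edgeR adjusted p = 0.178) and the mannosidase-like Edem1 (-0.76, adjusted p = 0.258). Of ER entry genes, which encode the translocon and signal peptidase, 15 of 16 were below 0 (median -0.29), with Sec61g (-0.76) and Ssr3 (-0.77) having the smallest p. Without young 2 the ER entry list had 9 of 16 below 0 (median -0.07), without aged 1 10 of 16 (median -0.06), and the ERAD list without aged 1 had 8 of 14 (median -0.09). The sensors and their processing enzymes lay on both sides, 4 of 10 below 0 with a median of 0.19, and Atf6b (-0.99) and Mbtps2 (0.47) had the smallest p. Of targets of the integrated stress response, the branch that runs through Atf4, 15 of 21 tested were below 0 (median -0.51), led by Cebpb (-1.94, edgeR adjusted p = 0.143) and Shmt2 (-1.42, adjusted p = 0.144). In counts simulated from these libraries over the same 15282 genes, the test recovered 0 of 100 genes changed 2-fold and 33 of 100 changed 4-fold.

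The second comparison asked how the genes were spread along the liver lobule, whose periportal hepatocytes receive fresh blood and whose pericentral hepatocytes lie around the draining vein. Within a library, nuclei were ranked by the difference between 12 pericentral and 12 periportal landmark genes, none of them a member, and the upper and lower terciles were summed. The ranking is a range, not a cell type. With the library as a block, 5 of the 9 members tested were lower in pericentral nuclei: Hspa5, Herpud1, Hyou1, Xbp1 and Pdia4. No member was higher. Of all 12634 genes tested, 22.1% were called, and 11.0% were called lower. All 9 members had a log2 difference below 0. In simulated counts over 12658 genes, this test recovered 97 of 100 genes changed 2-fold and 100 of 100 changed 4-fold. It also called 28 genes that had not been changed.

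Hspa5 was at 218, 311, 163 and 187 CPM in periportal and 167, 188, 91.8 and 99.3 CPM in pericentral nuclei of young 1, young 2, aged 1 and aged 2. It was lower pericentrally in all 4 libraries, with a log2 difference of -0.73 (SE 0.09, edgeR's quasi-likelihood test, adjusted p = 0.0003). Herpud1 was at 377, 549, 261 and 309 CPM in periportal and 277, 379, 154 and 217 CPM in pericentral nuclei. The order held in 4 of 4 libraries, and the log2 difference was -0.56 (SE 0.07, edgeR adjusted p = 0.0005). Hyou1 went from 62.6, 108, 28.5 and 63.1 CPM periportally to 47.9, 61.2, 19.8 and 34.8 CPM pericentrally. It too was lower in 4 of 4 libraries, by a log2 difference of -0.69 (SE 0.10, edgeR adjusted p = 0.0006). These 3 genes passed in all 8 alternatives tried.

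Xbp1 was at 197, 167, 201 and 155 CPM in periportal and 171, 142, 142 and 101 CPM in pericentral nuclei. Its log2 difference of -0.40 (SE 0.09, edgeR adjusted p = 0.0079) missed the threshold only without aged 2 (adjusted p = 0.0525). Pdia4 was at 50.3, 113, 77.0 and 76.2 CPM periportally and 35.6, 79.1, 80.9 and 43.3 CPM pericentrally, so aged 1 went the other way. Its log2 difference was -0.44 (SE 0.13, edgeR adjusted p = 0.041), and the call was lost with DESeq2 (0.081), with the upper and lower 50% of nuclei in place of terciles (0.056) and without young 1 (0.098), young 2 (0.129) or aged 2 (0.242). The remaining members did not pass in the main fit. Dnajb9 had a log2 difference of -0.48 (edgeR adjusted p = 0.055), Creld2 one of -0.49 (0.067), Ddit3 one of -0.27 (0.390) and Atf4 one of -0.13 (0.243). Dnajb9 was called lower in 2 of 8 alternatives, with nuclei of at least 1000 UMIs and without young 1. Creld2 was called lower in 3 of 8, with the 50% zones, without young 1 and among nuclei at or below the median mitochondrial share. Atf4 was at 126, 165, 62.7 and 73.4 CPM in periportal and 122, 153, 53.3 and 67.4 CPM in pericentral nuclei. Its zones thus differed by less than its libraries. Sdf2l1 had too few UMIs to be tested in this fit. In 3 alternatives that tested it, it was called lower with the 50% zones (-1.14, edgeR adjusted p = 0.028) and without young 1 (-1.54, 0.027), and not without young 2 (-1.11, 0.202).

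**Figure D2:**
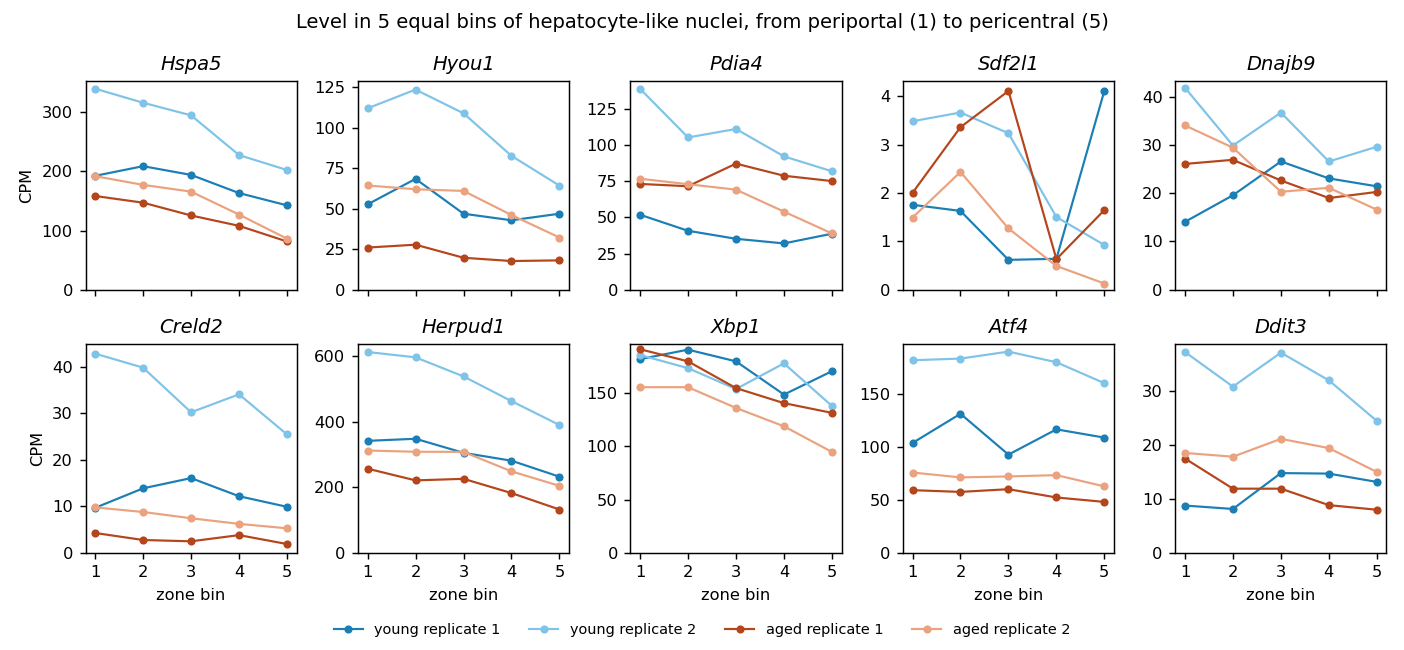
CPM (axes from 0) of the 10 genes in 5 equal bins of the hepatocyte-like nuclei, from periportal (1) to pericentral (5), one line per library. Hspa5 and Herpud1 end at their lowest level in bin 5 in all 4 libraries, whereas Atf4 stays near the level of its library.

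Split into 5 equal bins from periportal to pericentral, Hspa5 averaged 220, 212, 195, 156 and 128 CPM over the libraries (not TMM-scaled). Herpud1 averaged 381, 368, 344, 294 and 240 CPM. The fall was steeper over the pericentral bins, and it was not steady for every called member. Hyou1 was highest in bin 2 in young 1, young 2 and aged 1, and lowest in bin 4 in young 1 and aged 1. Hspa5 in aged 2 was at 192, 177, 166, 127 and 86.2 CPM (not TMM-scaled) from the most periportal to the most pericentral bin. In young 2 it was at 340, 316, 294, 227 and 202 CPM. The most pericentral bin held the lowest Hspa5 and Herpud1 level in 4 of 4 libraries, and the level in the most periportal bin was 1.35 to 2.23 times as high for Hspa5 and 1.47 to 1.94 times for Herpud1. In young 1 the highest level of both was in bin 2. Atf4 had ratios of 0.953 to 1.23 between these end bins.

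The ER folding list moved in the same direction as the chaperone members. Of its 16 genes 11 were lower pericentrally, none was higher and all 16 had a log2 difference below 0 (median -0.50, against -0.06 for sensors). Dnajc3 (-0.71, SE 0.08), an Hsp40 co-chaperone, Pdia6 (-0.88, SE 0.10), a disulphide isomerase, and Ero1lb (-0.96, SE 0.12), the oxidase that recharges such enzymes, had the smallest p. Of 16 ER entry genes 8 were lower (median -0.42), among them Tram1 (-0.74), Spcs2 (-0.81) and Sec61a1 (-0.51) of the translocon and signal peptidase, and none was higher. Without aged 2, 4 of these 16 were called.

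The other lists were mixed. Of 14 ERAD genes tested 4 were lower, Derl2 (-0.53), Syvn1 (-0.43), Os9 (-0.37) and Sel1l (-0.35), while Vcp (0.28) and Ufd1 (0.27), parts of the cytosolic extraction machine, were higher. These ERAD calls were fewer without aged 2 (1 lower, 0 higher), without young 2 (1 and 1) and with DESeq2 (2 and 1). Of the 10 sensor genes only Creb3l3 was called (-0.33), a membrane-bound factor of hepatocytes that is cut like ATF6. Of the 16 stress response targets tested, Atf5 (-0.75) and Nars (-0.40) were lower, and Aars (0.76), Trib3 (1.02) and Cebpb (0.33) were higher.

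**Figure D3:**
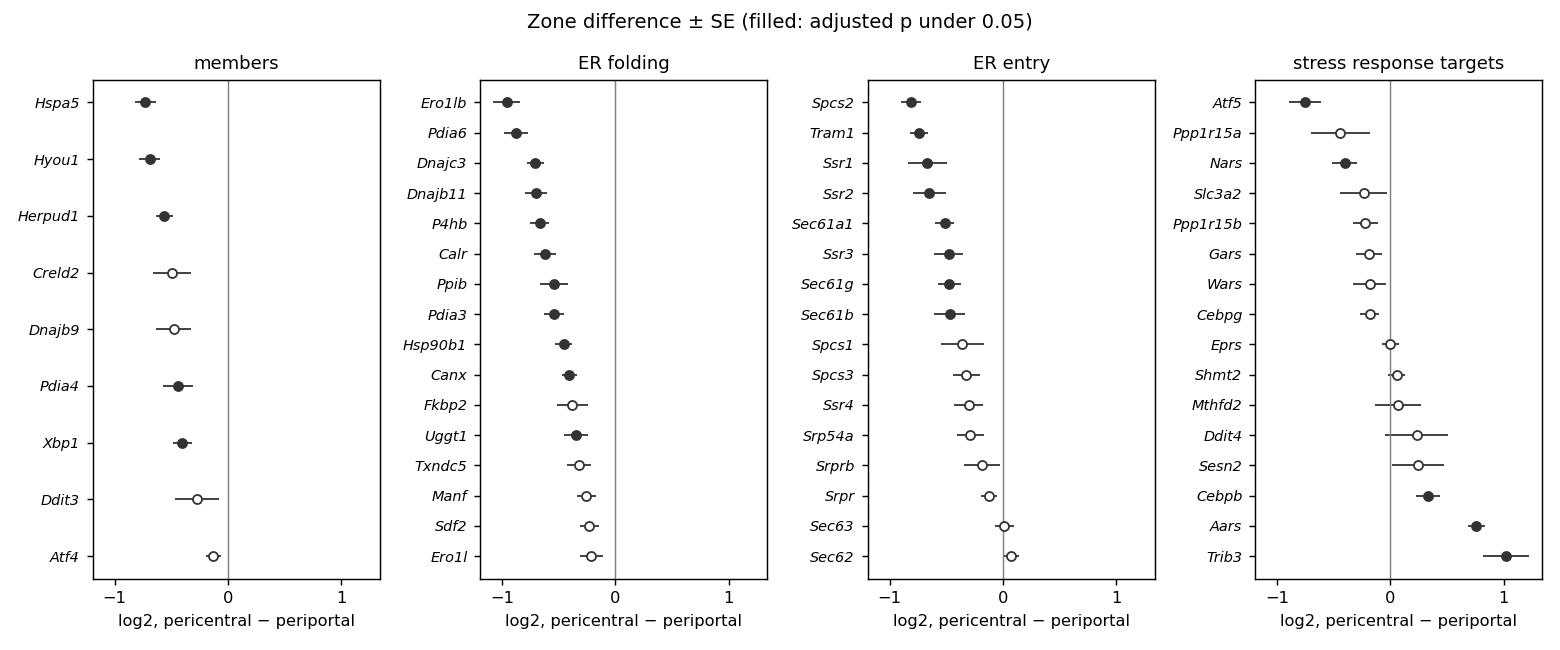
Log2 difference, pericentral minus periportal, ± SE from the fit, for each tested member and each tested gene of the lists. Filled points passed an adjusted p of 0.05. The members and the ER folding list lie to the left of 0, and the stress response targets lie on both sides.

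Mitochondrial UMIs differed between the zones as well. Their median share was 0.356%, 0.652%, 0.685% and 0.373% in periportal and 0.219%, 0.500%, 0.589% and 0.295% in pericentral nuclei. In an alternative chosen after seeing the data, only nuclei at or below the median share of their library were ordered (19.5% of 11440 genes called, 9.33% called lower). The difference was then -0.58 for Hspa5, -0.64 for Herpud1, -0.72 for Hyou1, -0.51 for Xbp1 and -0.72 for Creld2, all called. It was -0.37 for Pdia4, not called (edgeR adjusted p = 0.151). The folding list then had 9 genes lower and the ER entry list 5. The zones of these nuclei still differed in median share, at 0.178%, 0.355%, 0.450% and 0.222% periportally and 0.151%, 0.331%, 0.394% and 0.198% pericentrally. The age difference was not shown to depend on the zone. In the zone by age term 0 of 10 members passed (edgeR's quasi-likelihood test), as did 0.0361% of 13836 genes, with 805 genes (5.82%) and 2 members at an unadjusted p under 0.05. Those 2 were Xbp1 (-0.34, SE 0.13, edgeR adjusted p = 0.779) and Dnajb9 (-0.64, SE 0.26, adjusted p = 0.787), both negative, meaning a lower pericentral level relative to the periportal one in the aged libraries.

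A further comparison asked in which cell lineages the genes were more or less abundant. Clusters were built without the members and the pathway lists, and endothelial-like, macrophage-like and stellate/fibroblast-like nuclei were numerous enough to be tested against hepatocyte-like nuclei, with the library as a block. Hepatocyte RNA reached all of them. By a cut at the level of hepatocyte markers, 22.6% to 93.8% of endothelial-like, 32.1% to 93.4% of macrophage-like and 7.55% to 81.4% of stellate/fibroblast-like nuclei were rich in hepatocyte RNA, most often in young 2. No member was called in endothelial-like (0 of 9, background 9.68% of 12113 genes) or macrophage-like nuclei (0 of 9, background 10.5%) by edgeR's quasi-likelihood test. Most calls there were higher, and only 0.338% and 1.02% of all genes were called lower. At an unadjusted p under 0.05, 2895 and 2988 of all genes passed. In stellate/fibroblast-like nuclei 3 of 9 members were lower (background 30.4% called, 12.8% called lower): Hspa5, Herpud1 and Pdia4.

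Hspa5 was at 180, 274, 123 and 148 CPM (not TMM-scaled) in hepatocyte-like, 126, 238, 99.0 and 128 in endothelial-like, 155, 256, 118 and 126 in macrophage-like and 158, 200, 91.9 and 96.8 in stellate/fibroblast-like nuclei of young 1, young 2, aged 1 and aged 2. Within each library the stellate/fibroblast-like value was below the hepatocyte-like one, and young 2 was the highest library in all 4 classes. The log2 difference was -0.44 (SE 0.14, edgeR adjusted p = 0.030) for stellate/fibroblast-like and -0.43 (SE 0.14, adjusted p = 0.079) for endothelial-like nuclei, so these classes were close in the order although the first alone passed. They were not tested against each other. Herpud1 was at 300, 517, 201 and 274 CPM in hepatocyte-like and 259, 410, 58.5 and 118 CPM in stellate/fibroblast-like nuclei. The gap was widest in the aged libraries, though this was not tested, and the log2 difference over all 4 was -0.88 (SE 0.27, edgeR adjusted p = 0.027). Pdia4 was at 38.9, 105, 76.4 and 61.6 CPM against 35.5, 71.3, 13.9 and 28.1 CPM, a log2 difference of -0.91 (SE 0.27, edgeR adjusted p = 0.023). None of the 3 calls held without aged 1 or without aged 2, and 1 held without young 2.

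**Figure D4:**
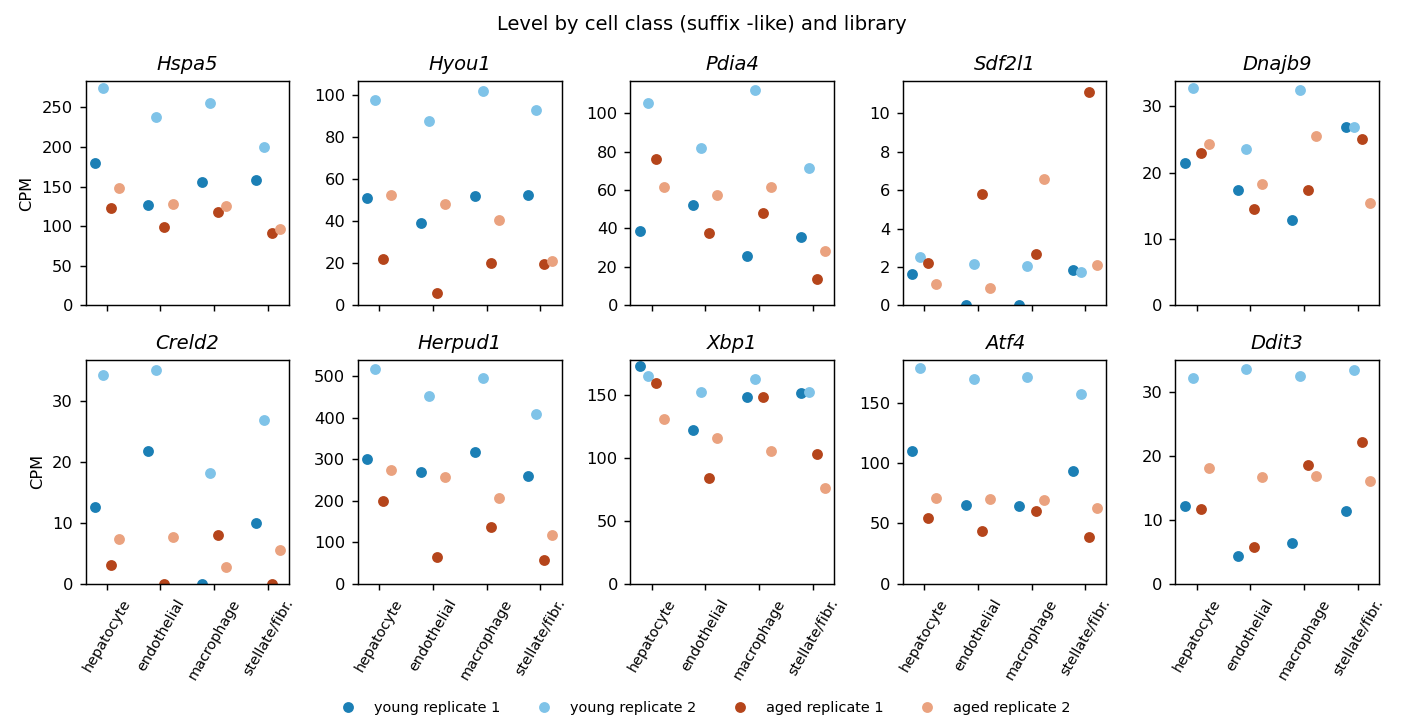
CPM (axes from 0, not TMM-scaled) of the 10 genes in the 4 tested cell classes, one point per library. Young 2 is the highest library in every class for Hspa5, Herpud1, Hyou1 and Atf4, and aged 1 is lowest in stellate/fibroblast-like nuclei for Herpud1 and Pdia4.

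The stellate/fibroblast-like class was made of 2 clusters that the groups filled differently. Cluster 3, with Reln among its leading genes, held 189, 493, 315 and 1184 nuclei of young 1, young 2, aged 1 and aged 2. Cluster 4, led by Nrxn3 and Ecm1, held 186, 1033, 3 and 45, and at least 90.5% of its nuclei in every library were rich in hepatocyte RNA. With cluster 3 alone (chosen after seeing the data, background 45.9% of 13366 genes called, 24.3% called lower), 6 of 9 members were lower than in hepatocyte-like nuclei. Herpud1 differed by -1.64, Pdia4 by -1.24, Creld2 by -1.21, Hyou1 by -0.96, Xbp1 by -0.78 and Hspa5 by -0.69 on the log2 scale. Without nuclei rich in hepatocyte RNA, 6 of 6 members tested were lower in the class (background 55.1% of 6509 genes called, 29.7% called lower): Hspa5, Herpud1, Hyou1, Xbp1, Atf4 and Pdia4. In endothelial-like nuclei, 3 of 6 were then lower (Herpud1, Hyou1 and Xbp1, background 42.9% called, 22.9% called lower). Macrophage-like nuclei could not be run that way, since young 1 kept 11.

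Folding and ERAD genes were called lower about as often as all genes (12.8%). Of 16 folding genes Hsp90b1 (-0.54) and Ero1lb (-0.99) were lower in stellate/fibroblast-like nuclei, and of 14 ERAD genes Vcp (-0.46) and Derl2 (-0.71) were lower and Ube2j1 (0.67) was higher. Without aged 1 or without aged 2 none of these folding and ERAD genes was called, while in cluster 3 alone 9 folding and 8 ERAD genes were lower. Of the sensors, Creb3l3 (-1.13), Ern1 (-0.86), which encodes IRE1, and Atf6 (-0.60) were lower, and the eIF2alpha kinases Eif2ak4 (0.69) and Eif2ak2 (0.64) were higher. Without aged 2 no sensor gene was called, and without aged 1 there were 1 lower and 1 higher. Of stress response targets Aars (-0.79) and Cebpb (-0.72) were lower and Gars (0.61) was higher. No gene of the 5 lists was called in endothelial-like or macrophage-like nuclei, and no ER entry gene in stellate/fibroblast-like nuclei. B-like, T/NK-like, cholangiocyte-like and mesothelial-like nuclei had under 20 nuclei in a library and were not tested. Over these 4 classes and the 4 libraries, Hspa5 gave 40 to 189 UMIs per class, and its median over the libraries was 133 CPM in B-like, 138 in mesothelial-like, 167 in T/NK-like and 246 in cholangiocyte-like nuclei. Single libraries held as little as 1 UMI (B-like, young 1), so these classes were not ranked.

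The age difference in the other lineages was looked at in the same way. In endothelial-like nuclei 0 of 9 members passed (edgeR's quasi-likelihood test, background 0.0% of 9781 genes; 467 genes at an unadjusted p under 0.05), and in macrophage-like nuclei 0 of 8 (background 0.0115% of 8669 genes; 1273 unadjusted). Their log2 differences were nevertheless all below 0. In macrophage-like nuclei Herpud1 was at 317, 496, 138 and 208 CPM (-1.26, SE 0.37, edgeR adjusted p = 0.212). Nuclei rich in hepatocyte RNA made up 71.1%, 93.4%, 32.1% and 70.5% of macrophage-like and 62.7%, 93.8%, 22.6% and 79.2% of endothelial-like nuclei, in the same order of libraries. Their part in the macrophage-like differences was not tested. In endothelial-like nuclei without them, 0 of 3 members tested and 0.0% of 3428 genes were called with age. With 1 library left out, the median log2 difference of the members in endothelial-like nuclei ran from -1.70 (without aged 2) to -0.18 (without young 2). In macrophage-like nuclei it ran from -1.05 (without young 1) to -0.21 (without young 2).

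In stellate/fibroblast-like nuclei as a class, Herpud1 and Hyou1 fell with age (2 of 9 members, background 14.5% of 12244 genes called, 5.79% called lower), and all 9 members were below 0 (median -1.12). The Herpud1 values given above showed no overlap, with a log2 difference of -1.79 (SE 0.40, edgeR adjusted p = 0.029). Hyou1 was at 52.3, 92.6, 19.5 and 21.0 CPM, both aged libraries under both young ones, a log2 difference of -1.73 (SE 0.38, edgeR adjusted p = 0.028). The share of all genes without overlap was not counted in this class, so these orders have no background beside them. Of the lists, Hsp90b1 (-1.16), Syvn1 (-2.38), Derl2 (-1.70), Edem1 (-1.30), Creb3l3 (-1.73), Ern1 (-1.74), Cebpb (-2.82), Shmt2 (-2.48) and Aars (-1.74) fell, and Slc7a11 (4.03), a cystine transporter, rose. None of these list genes was called in cluster 3 alone. There, 0 of 6 members and 2 of 6493 genes were called (0.0308%; edgeR, 754 genes at an unadjusted p under 0.05), with Herpud1 at 98.8, 205, 59.1 and 101 CPM (-0.83, adjusted p = 0.489) and Hyou1 at 36.4, 48.4, 19.7 and 22.6 CPM (-0.93, adjusted p = 0.457). Without nuclei rich in hepatocyte RNA Herpud1 was at -0.91 (edgeR adjusted p = 0.402). Both calls were also lost with the replicate number as a block (edgeR adjusted p = 0.058 for Herpud1 and 0.063 for Hyou1), without young 2 and without aged 1. That of Hyou1 was lost without aged 2 as well. With 1 library left out, the median log2 difference of the members ran from -1.65 (without aged 2) to -0.85 (without young 2).

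Within hepatocyte-like nuclei, genes that accompanied Hspa5 were sought by comparing thinned nuclei with and without an Hspa5 UMI (224 and 1075 in young 1, 844 and 2987 in young 2, 475 and 3515 in aged 1, 994 and 6172 in aged 2). None of the 8 other members tested passed (edgeR's quasi-likelihood test, background 1.69% of 9160 genes called; 876 genes, 9.56%, and 2 members at an unadjusted p under 0.05). Creld2 (0.55, SE 0.25, edgeR adjusted p = 0.445) and Atf4 (0.22, SE 0.10, adjusted p = 0.428) had an unadjusted p of 0.031 and 0.028. Herpud1 differed by 0.05 (SE 0.06), so nuclei with an Hspa5 UMI held nearly the same Herpud1 level as those without. Of the folding list P4hb, the beta subunit of prolyl hydroxylase and a disulphide isomerase, was higher (0.29, edgeR adjusted p = 0.036), and no other list gene was called. P4hb was not called without doublet removal or with any 1 library left out, and at 2000 UMIs per nucleus 4 folding genes were called. In simulated counts over 9161 genes the test recovered 90 of 98 genes changed 2-fold.

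The genes most raised beside Hspa5, by a rule on fold change and level, were Rbfox1 (1.04), Lin9 (0.98), Zfp330 (0.80), the lysosomal protease Ctsd (0.76), Hspa4l (0.70), the plasma proteins Hp (0.68), Hpx (0.62) and Orm1 (0.61), the ER cargo receptor Surf4 (0.57) and Apon (0.53), as log2 differences. By p-value, mitochondrially encoded genes led (mt-Co3, 0.57). The pericentral landmark Slc1a2 was lower (-0.56). Nuclei with an Hspa5 UMI also had a higher median mitochondrial share in each library (0.322% against 0.276%, 0.479% against 0.415%, 0.819% against 0.527% and 0.364% against 0.312%). They were more periportal as well. Their median zone score (pericentral minus periportal landmarks) was -0.594 against -0.358, -0.237 against -0.048, -0.514 against -0.372 and -0.736 against -0.539. The part of the mitochondrial share and of the zone in these differences was not tested.

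Pairs of members were found in 1 nucleus little more often than their separate frequencies give. Over the 36 pairs without Sdf2l1, the Mantel-Haenszel odds ratio over libraries had a median of 1.08 and ran from 0.740 (Xbp1 with Pdia4) to 1.66 (Dnajb9 with Creld2), with 29 pairs above 1. Atf4 with Creld2 had 1.61, Hyou1 with Dnajb9 1.61 and Hspa5 with Herpud1, the 2 most counted members, 1.03. At 1000 UMIs per nucleus most members leave no UMI in most nuclei, so weak pairing would be hard to see.

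Because the mitochondrial share moved with both the zone and Hspa5, the highest and lowest terciles of hepatocyte-like nuclei by that share were compared within each library. This comparison was chosen after seeing the data. Nuclei with an Hspa5 UMI had already shown a higher share in each library. A higher Hspa5 level in the high tercile was therefore foreseeable, and its p-value is no separate evidence. Of 9 members tested 5 were higher in the high tercile (background 12.4% of 12108 genes called, 7.89% called higher): Hspa5, Pdia4, Dnajb9, Hyou1 and Herpud1. Hspa5 was at 164, 235, 82.6 and 112 CPM (not TMM-scaled) in the low tercile and 199, 344, 282 and 237 CPM in the high tercile, higher in 4 of 4 libraries and most of all in the aged ones. The log2 difference was 0.96 (SE 0.17, edgeR's quasi-likelihood test, adjusted p = 0.0026), and 0.068 was the adjusted p without aged 2. In the high tercile the Hspa5 levels of young and aged libraries overlapped, and in the low tercile they did not, a contrast that was not tested. The share of all genes without overlap in the low tercile was not counted. Pdia4 was at 33.5, 84.7, 64.5 and 55.5 CPM in the low and 49.2, 157, 123 and 73.3 CPM in the high tercile (0.72, SE 0.10, edgeR adjusted p = 0.0003), and this call held without any 1 library.

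Dnajb9 (0.53, edgeR adjusted p = 0.0096), Hyou1 (0.51, adjusted p = 0.014) and Herpud1 (0.29, adjusted p = 0.040) were higher by less. With a library left out, 5 members were called without young 1, 2 without young 2, 4 without aged 1 and 1 without aged 2, all higher. Of all genes, 6.45%, 4.45%, 6.98% and 3.89% were called higher in these fits. The transcription factors did not pass: Atf4 differed by 0.17 (edgeR adjusted p = 0.126), Xbp1 by 0.08 (0.531) and Ddit3 by 0.07 (0.854), and neither did Creld2 (0.32, 0.193). Of the folding list 11 of 16 were higher, led by P4hb (1.33), Calr (1.28) and Pdia6 (0.99), and of the ER entry list 11 of 16, led by Spcs3 (0.78), Ssr1 (1.00) and Tram1 (0.50). Without aged 2 the counts were 4 and 5, and without young 2 they were 7 and 7. Os9 (0.66), Selenos (0.56) and Syvn1 (0.33) of ERAD, Atf6b (0.68) of the sensors and Atf5 (0.85) of the stress response targets were higher, and Aars (-0.28) was lower. The calls of Atf6b and Aars were lost with any 1 library left out. The terciles differed in depth and in zone as well. Median UMIs per nucleus were 4557, 1191, 4728.5 and 4824 in the low and 2754, 794, 860 and 1620 in the high tercile. The median zone score was -0.083, -0.022, -0.19 and -0.27 in the low and -0.70, -0.25, -0.34 and -0.51 in the high tercile. The high tercile was thus more periportal in each library. The part of depth, of zone and of RNA from outside the nucleus was not tested.

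**Figure D5:**
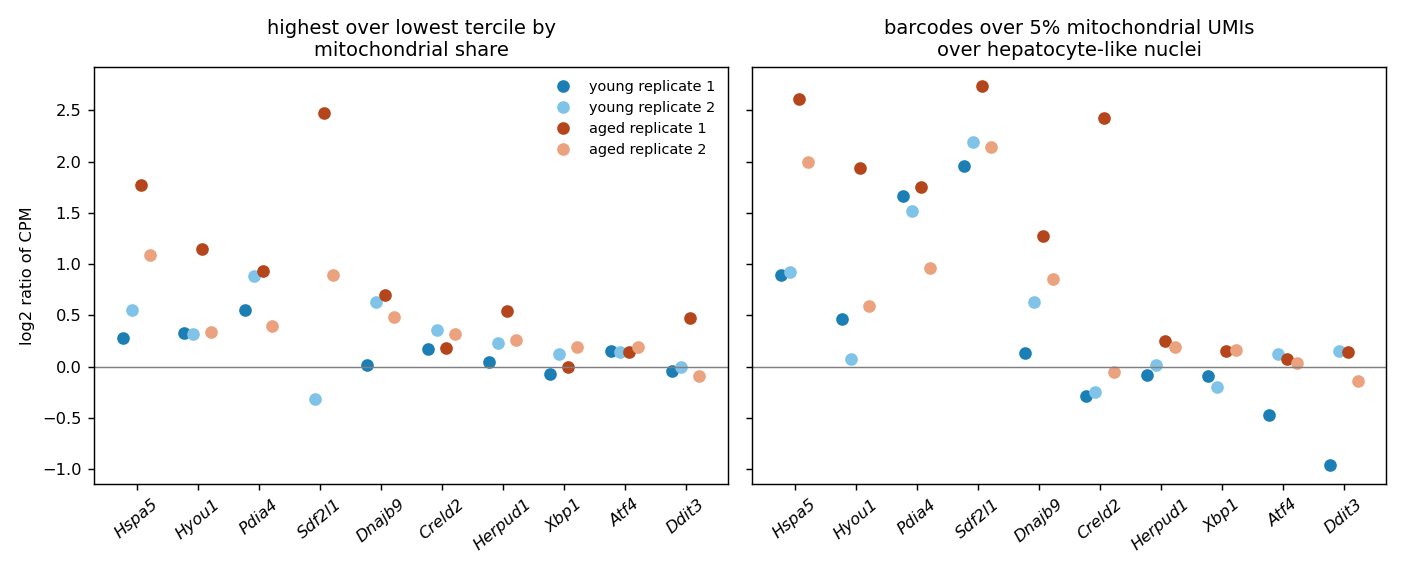
Log2 ratio of CPM for the 10 genes, one point per library. One panel compares the high with the low tercile of hepatocyte-like nuclei by mitochondrial share and the other compares barcodes over 5% mitochondrial UMIs with hepatocyte-like nuclei. Hspa5 and Pdia4 lie above 0 in every library in both panels, and Xbp1 lies near 0 in both. Sdf2l1 has no point for young 1 on the left, where it had too few UMIs.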

How the data were processed

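Nuclear RNA of 4 liver libraries was counted by the authors, and the deposited values are UMI counts per gene and barcode. The submitters' processing notes name Cell Ranger 7.1.0 and the build mm10. The annotation release and the handling of introns are not stated in those notes. The members and gene lists were chosen with earlier results of these data known.

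Barcodes with at least 500 UMIs, 300 genes and at most 5% mitochondrial UMIs were kept, and the highest Scrublet scores (0.8% per 1000 barcodes) were removed as doublets. Nuclei were clustered with scanpy 1.11.5 on 2000 variable genes without the members and lists, and clusters were named from markers. A cluster took the name of another lineage where that lineage's mean marker z-score was highest and above 1, with at least 3 markers raised. It was called hepatocyte-like where no other lineage exceeded 1 and at least 3 of the 10 hepatocyte markers were in 5% of its nuclei. All 10 were, but so they were in every other cluster but 1, so this name rests mainly on the lack of other markers. A cluster with 3 lineages above 1 stayed unnamed. No authors' annotation was used, so class names are rebuilt. Counts were summed per library and class, zone or tercile, wherever each library had at least 20 nuclei. Low genes were removed by filterByExpr, sums scaled by TMM and tested with edgeR 4.0.16 (quasi-likelihood test, R 4.3.3, Benjamini-Hochberg over all genes tested, threshold 0.05). DESeq2 1.42.0 was an alternative, beside other filters, scalings, cuts and leaving out each library. The fits of age, zone, their interaction and the Hspa5 companions were tested on simulated data. Nuclei rich in hepatocyte RNA were those above 50% of the median hepatocyte marker level. The depth per library limits precision most for young 1, with 11799751 UMIs.

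All members are named in the report. From each pathway list the genes with adjusted p under 0.05 are named, at most 3 per direction by p, and otherwise the 2 with the smallest p. Where no list gene was called outside hepatocyte-like nuclei or in the zone by age term, only counts are given. Companions of Hspa5 are the 10 greatest rises at 10 CPM or more, without predicted, mitochondrial and ribosomal genes. Sel1l was named after its value was seen.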

Additional observations from a re-analysis of the deposited data

Results flagged for a closer look

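In the comparison of hepatocyte-like nuclei by mitochondrial share, 1 library stood apart from the other 3 for 2 members. The log2 ratio of Hyou1, high against low tercile, was 1.14 in aged 1 and 0.320 to 0.337 in the other libraries. That of Ddit3 was 0.47 in aged 1, and -0.04, -0.01 and -0.09 in young 1, young 2 and aged 2. Chance alone sets a library apart in about 5% of groups, and several such groups were examined.

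Barcodes with over 5% mitochondrial UMIs entered no comparison of the report (689, 868, 3424 and 843 barcodes, median share 12.5%, 7.14%, 11.0% and 7.75%). Per 1000000 non-mitochondrial UMIs, 5 members were higher in them than in hepatocyte-like nuclei in all 4 libraries. The share of all genes that were higher in this way was not counted, so this number has no background beside it. Hspa5 was at 336, 525, 761 and 594 CPM in these barcodes and at 181, 276, 124 and 149 CPM in hepatocyte-like nuclei, a ratio of 1.86 in the lowest library and 6.13 in the highest. The lowest ratio was 1.95 for Pdia4, 3.88 for Sdf2l1, 1.10 for Dnajb9 and 1.05 for Hyou1, the highest 3.38, 6.69, 2.42 and 3.84. Herpud1 (0.944 to 1.19), Xbp1 (0.872 to 1.12), Atf4 (0.721 to 1.09), Ddit3 (0.514 to 1.11) and Creld2 (0.822 to 5.38) lay on both sides of 1. The order of the age groups for Hspa5 also differed there, since both aged libraries were above both young ones. How many of all genes had that order in these barcodes was not counted. These ratios were not tested, and the cells or debris that gave these barcodes were not identified.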

How the results depend on the processing

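Counts of genes and of members called are given first as in the report, then under the alternative. Age in hepatocyte-like nuclei called 5 genes, and 805 with DESeq2, 1464 with no filter on low counts, 19 with the replicate block, 2 with at most 1% mitochondrial UMIs, 2 with at least 1000 UMIs and 212 to 1411 with 1 library left out. Members called were 0, and 1 with DESeq2, 1 with no filter and 0 to 1 with 1 library left out. Pdia4 turned to -0.022 with at least 1000 UMIs. With 1 library left out, Ddit3 ran from -0.94 to 0.22, Dnajb9 from -0.31 to 0.073, Sdf2l1 from -0.84 to 0.20 and Pdia4 from -0.45 to 0.76. The sign turned without young 2 for Ddit3 and Dnajb9, without aged 2 for Sdf2l1, and without young 1 or aged 1 for Pdia4.

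In endothelial-like nuclei age called 0 genes, 1 with the replicate block and 0 to 639 with 1 library left out, and 0 to 2 members. Hspa5 turned to 0.32 without nuclei rich in hepatocyte RNA. In macrophage-like nuclei it called 1 gene, 0 with the replicate block and 54 to 364 with 1 library left out, and 0 to 1 members, with Ddit3 from -0.84 to 1.34, Dnajb9 from -0.55 to 0.64 and Pdia4 from -0.99 to 0.99. In stellate/fibroblast-like nuclei it called 1781 genes and 2 members, with the replicate block 410 and 0, without nuclei rich in hepatocyte RNA 0 and 0 (edgeR; fewer genes tested), in 1 cluster 2 and 0, and with 1 library left out 0 to 1801 and 0 to 5, with Ddit3 from -0.79 to 0.61.

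With 1 library left out, the zone called 1710 to 2553 genes and 3 to 7 members (2798 and 5 with all), and the zone by age term 0 to 109 genes, with Hyou1 from -0.37 to 0.12 and Pdia4 from -0.33 to 0.56. Against hepatocyte-like nuclei, endothelial-like nuclei gave 2794 genes and 3 members without nuclei rich in hepatocyte RNA (1173 and 0 with them) and 737 to 1028 genes with 1 library left out, with Creld2 from -0.097 to 0.070. Macrophage-like nuclei gave 750 to 1272 genes. Stellate/fibroblast-like nuclei gave 6 members without nuclei rich in hepatocyte RNA, 6136 genes and 6 members in 1 cluster, where Ddit3 was at -0.23, and 1083 to 4124 genes and 0 to 3 members with 1 library left out, with Ddit3 from -0.082 to 0.12. Companions of Hspa5 numbered 247 at 2000 UMIs, with Ddit3 at 0.52, and 1 member was called without doublet removal, where Dnajb9 was at -0.12. With 1 library left out they numbered 81 to 146, with Xbp1 from -0.046 to 0.060 and Pdia4 from -0.050 to 0.084. The mitochondrial share called 634 to 1285 genes and 1 to 5 members with 1 library left out, with Ddit3 from -0.020 to 0.17. The cause of these shifts was not tested.

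Same-numbered libraries of the age groups shared only a number (correlation of their deviations -0.217 across 15282 genes), and the replicate block changed no member's call outside stellate/fibroblast-like nuclei. Where 1 library of a group was left out, the lone library was assumed to vary like the others. Over single members and named genes, 787 of the values under alternatives kept direction and call, 34 gained a call, 116 lost one and 24 changed sign. Sdf2l1 was limited by its UMIs.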

Other observations

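Hspa5 also differed between clusters of hepatocyte-like nuclei of 1 library. Over the 13 combinations of cluster and library that were summed, its level ran from 70.8 CPM in cluster 17 of aged 2 to 394 CPM in cluster 11 of young 2. In aged 2 alone it was at 70.8 CPM in cluster 17, 109 CPM in cluster 14 and 358 CPM in cluster 20. In aged 1 the lowest was 75.5 CPM, in cluster 19. Most clusters drew on 1 library. Cluster 17 had the pericentral landmarks Glul and Slc1a2 among its leading genes, and its low Hspa5 level was not tested apart from the zone. It was called hepatocyte-like mainly because no other lineage's markers stood out in it. All 10 hepatocyte markers were detected in it, as in nearly every cluster, where the rule asked for 3.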
